A study of Saccharomyces cerevisiae with 27 samples.

Results

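The comparison described here sets budding yeast cells carrying scc2-4, a temperature-sensitive allele of the cohesin loader gene SCC2, against wild-type cells when both had received a DNA double-strand break. It uses 13 of the 27 expression arrays of the study, namely the 7 arrays labelled scc2-4 with a break and the 6 labelled wild type with a break, which were chosen by their labels alone. All strains were haploid and of W303 origin, grew in YEP medium with 2% raffinose and were held in G2/M before the temperature was raised. Galactose, which switches on the HO endonuclease, was given 30 min later to every group, and cells were taken after a further 90 min. RNA of every sample was extracted only after the cells had been kept with zymolase, a cell-wall enzyme, for 1 h at 30 °C. HO cuts at 1 site in strains that carry its recognition sequence, and the labels place that site on chromosome VI in one field and on chr.iv in another, a conflict that was not settled. Neither the raised temperature, nor the number of strain isolates, nor the way the arrest was made is stated in the labels used here. The other 14 arrays, 7 of each genotype, were labelled as having no break and serve below as the comparison without a break. Galactose was given to them too, so the break goes with the strain that carries the recognition sequence. Break and strain therefore cannot be told apart.

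Cohesin is a ring of Smc1, Smc3, the kleisin Mcd1 (Scc1) and Irr1 (Scc3) that holds sister chromatids together, and the Scc2-Scc4 complex loads it onto chromosomes. Loading is densest around centromeres, and in G2/M a break also brings new cohesin to the damaged chromosome. In yeast the loader has also been linked to transcription, and a break switches on a set of damage-response genes through the Mec1 checkpoint kinase.

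The arrays fell into 2 experiments, with 3 wild-type and 3 scc2-4 arrays in experiment 1 and 3 and 4 in experiment 2. Values are log2 RMA intensities. By their value distributions the arrays form separate sets: experiment 1, the wild type of experiment 2, and scc2-4 of experiment 2. The labels name no such sets, and whether they were processed apart was not tested. Sorted values differed on average by no more than 0.03 inside a set and by 0.15 to 0.42 across sets. Value set and genotype therefore cannot be told apart in experiment 2, where the median of all 5434 genes was 0.23 higher in scc2-4, against 0.01 in experiment 1. After quantile normalization over all arrays the shift in experiment 2 was 0.02. Each experiment was fitted apart with limma, and a gene is called here only when it passed an adjusted p of 0.05 in both with the same sign. In experiment 1 replicate 1 of each genotype stood apart, by a median absolute difference of 0.10 to 0.12 from replicates 2 and 3, which differed from each other by 0.05 and 0.06. The arrays were few, and this limits the precision.

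Several genes bear on the labels. Galactose was given to every group, so HO and GAL1 can check its action but neither the genotype nor the break. HO itself was high in all 13 arrays, at 13.41 to 13.65, with changes of −0.03 in both experiments (adjusted p = 0.687 and 0.555), and −0.23 in experiment 2 after quantile normalization. GAL1, galactokinase, lay between 13.97 and 14.12, and its change of 0.08 in experiment 2 turned to −0.04 when quantile-normalized and −0.17 when centred. Markers of a cells and of alpha cells were both low: all 7 a-cell and all 4 alpha-cell markers lay among the dimmest 15.8% of genes by mean value. By brightness they therefore showed neither an a nor an alpha type, and the haploid label was not tested by them. Summed a-cell markers came to 9.20 to 9.29 log2 units in wild type and 9.24 to 9.39 in scc2-4 in experiment 1, and to 8.90 to 8.96 and 9.07 to 9.17 in experiment 2. For the alpha-cell markers the sums were 8.56 to 8.71 and 8.95 to 9.07 in experiment 1, and 8.62 to 8.69 and 8.84 to 9.01 in experiment 2. Of the alpha-cell markers 1, SAG1, was higher in both experiments and 2 were lower, and of the a-cell markers 1 was higher and 1 lower. Among 19 measured genes of the CLB2 cluster, which mark G2/M, 2 (10.5%) were higher in both experiments, against 14.4% of all genes, and 0 lower. In experiment 2 alone 11 were higher and 3 lower, beside 58.8% and 24% of all genes. After quantile normalization these were 8 and 9, beside 39.9% and 37.8%.

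In scc2-4 cells 782 of 5434 genes were higher in both experiments and 300 were lower. These are 14.4% and 5.52% of all genes (19.9% together), the shares against which the counts below are read. The 2 fits were of unequal reach: 915 genes (16.8%) were higher and 787 (14.5%) lower in experiment 1 (31.3% of genes called), and 3197 (58.8%) and 1303 (24%) in experiment 2 (82.8%). After quantile normalization experiment 2 gave 2170 (39.9%) and 2053 (37.8%), and the genes called in both became 618 higher (11.4%) and 514 lower (9.46%), so the higher share fell from 72.3% to 54.6%. Centring each array on its median gave 597 and 528. On both scales, 595 higher genes (10.9%) and 283 lower genes (5.21%) were called in both experiments. In bulk RNA fewer cells of a kind and less RNA per cell cannot be told apart. Changes were mostly small: 128 higher and 53 lower genes moved by at least 0.5 log2 units in both experiments, and 6 and 9 by at least 1.

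The experiments also disagreed. A total of 352 genes (6.48%) passed in both with opposite signs, 301 of them lower in experiment 1 and higher in experiment 2, and 210 did so after quantile normalization. This count was 205 without wild-type replicate 2 and 228 without wild-type replicate 3 of experiment 1. A direct test of the difference between the experiments passed for 3861 genes (71.1%) as deposited and 3307 (60.9%) after quantile normalization. Among the 595 higher genes the median log2 change was 0.35 in experiment 1 and 0.83 in experiment 2, or 0.60 when quantile-normalized. For the 283 lower genes these medians were −0.33, −0.40 and −0.62.

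**Figure D1:**
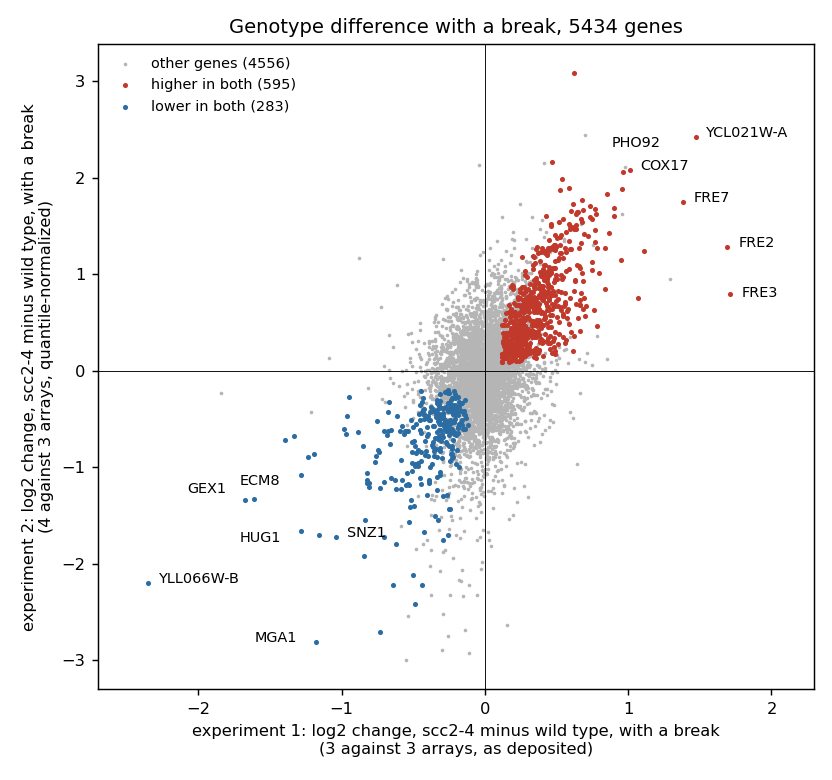
Log2 change of each of 5434 genes (scc2-4 minus wild type, with a break) in experiment 1 on the x axis, as deposited, and in experiment 2 on the y axis, quantile-normalized. Red marks the 595 genes higher and blue the 283 lower in both experiments on both scales, and the cloud is taller than wide because changes were larger in experiment 2.

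SCC2 mRNA, the transcript of the mutated gene, was lower in the mutant. Wild-type arrays read 9.87, 9.81 and 9.89 in experiment 1 and 9.52, 9.53 and 9.67 in experiment 2, and scc2-4 arrays 9.38, 9.44 and 9.28, and 9.13, 9.07, 9.17 and 9.10. The groups did not overlap in either experiment, as was so for 41.7% of all genes in experiment 1 and 81.2% in experiment 2, with log2 changes of −0.49 ± 0.05 (SE; adjusted p = 6.76e-05) and −0.46 ± 0.05 (adjusted p = 2.87e-07). The allele acts through the protein, so this level is no check of the genotype. SCC4, which encodes the other loader subunit, stood at −0.02 ± 0.06 in experiment 1 (adjusted p = 0.866) and −0.23 ± 0.06 in experiment 2 (adjusted p = 0.00145). MCD1, the mitotic kleisin, was at −0.06 ± 0.06 (adjusted p = 0.484) and 0.31 ± 0.07 (adjusted p = 0.00069), and the latter was 0.04 after quantile normalization (adjusted p = 0.605).

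Of the 14 genes of cohesin, its loader and its regulators, 5 (35.7%) were lower and 1 (7.14%) higher in both experiments. Beside them stand 5.52% and 14.4% of all genes. The 2 counts were the same as deposited and quantile-normalized. The lower ones were the core ring genes SMC1, SMC3 and IRR1, the maintenance factor PDS5 and SCC2 itself. SMC1 read 10.29, 10.27 and 10.22 in wild type and 9.82, 9.76 and 9.59 in scc2-4 in experiment 1, and 10.28, 10.25 and 10.22 against 9.41, 9.33, 9.52 and 9.46 in experiment 2. Its groups were fully apart, by −0.54 ± 0.06 and −0.82 ± 0.04. For SMC3 the log2 changes were −0.66 ± 0.05 and −0.50 ± 0.09, for PDS5 −0.44 ± 0.07 and −0.44 ± 0.05, and for IRR1 −0.23 and −0.65. ECO1, the acetyltransferase that locks loaded cohesin in place, was the higher member, by 0.20 and 0.52. Over the 14 genes the median change was −0.04 in experiment 1 and −0.42 in experiment 2 when quantile-normalized, beside 0.01 and 0.02 over all genes. Without a break 2 of the 14 (14.3%) were lower in both experiments, against 4.12% of all genes.

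Several of the genes that a break or other DNA damage switches on were lower in scc2-4. Of 16 measured damage-induced genes 7 (43.8%) were lower in both experiments and 0 higher, beside 5.52% and 14.4% of all genes. After quantile normalization 8 were lower, where 9.46% of all genes were. A further 2, RNR2 and RNR4 of ribonucleotide reductase, passed with opposite signs. Of the 16, 12 were lower and 3 higher in experiment 2 alone, beside 24% and 58.8% of all genes. After quantile normalization these counts were 14 and 0, beside 37.8% and 39.9%. Without a break 4 (25%) of the 16 were lower in both experiments, against 4.12% of all genes. HUG1, a small inhibitor of ribonucleotide reductase, was the leading gene: wild-type arrays read 9.82, 10.12 and 9.54 in experiment 1 and 9.97, 9.85 and 9.73 in experiment 2, scc2-4 arrays 8.52, 8.66 and 8.45, and 8.45, 8.40, 8.63 and 8.29. Every scc2-4 array lay below every wild-type array, by −1.28 ± 0.13 (adjusted p = 8.37e-05) and −1.41 ± 0.11 (adjusted p = 1.17e-08). PLM2, which encodes a forkhead-associated protein, read 9.46, 9.91 and 9.86 against 8.98, 8.95 and 8.82, and 9.62, 9.29 and 9.04 against 8.40, 8.33, 8.59 and 8.38, with changes of −0.82 ± 0.16 and −0.89 ± 0.17. MAG1, a DNA glycosylase gene of base excision repair, was at −0.55 ± 0.08 and −0.97 ± 0.06, and DUN1, the checkpoint kinase that acts on ribonucleotide reductase, at −0.41 ± 0.05 and −0.43 ± 0.05. DIN7, a mitochondrial nuclease gene, and RAD23, of nucleotide excision repair, had changes of −0.31 and −0.21, and of −0.45 and −0.15.

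RNR3, an inducible ribonucleotide reductase subunit, did not act alike in the experiments. It read 9.49, 9.41 and 9.23 in wild type and 9.06, 9.03 and 9.0 in scc2-4 in experiment 1, a change of −0.35 ± 0.06 (adjusted p = 0.00204). In experiment 2 the groups met, at 9.01, 9.02 and 8.92 against 9.02, 9.05, 9.15 and 9.04, with 0.08 ± 0.06 (adjusted p = 0.215). After quantile normalization the second value turned to −0.20 (adjusted p = 0.00613). Without a break RNR3 was at −0.15 ± 0.06 in experiment 1 (adjusted p = 0.0931) and 0.90 ± 0.06 in experiment 2 (adjusted p = 7.3e-10). The genotype difference with a break minus that without was −0.20 (adjusted p = 0.57) in experiment 1 and −0.82 (adjusted p = 8.32e-05) in experiment 2.

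Homologous recombination and end resection repair a break from a sister chromatid. Of 22 measured genes 5 (22.7%) were lower and 1 (4.55%) higher, beside 5.52% and 14.4% of all genes. After quantile normalization 8 were lower. RAD52, a central gene of this repair, read 10.35, 10.45 and 10.36 in wild type against 9.71, 9.68 and 9.72 in scc2-4 in experiment 1, and 10.06, 10.11 and 9.89 against 9.66, 9.59, 9.59 and 9.61 in experiment 2. The gap was −0.68 ± 0.04 and −0.41 ± 0.05, wide of the spread in both. RDH54 and RAD54, the translocases of strand exchange, were at −0.47 ± 0.10 and −0.75 ± 0.04, and at −0.35 ± 0.10 and −1.25 ± 0.04. The RAD54 call in experiment 1 was lost without wild-type replicate 1 (−0.27), scc2-4 replicate 2 (−0.33) or scc2-4 replicate 3 (−0.27). RAD50 and TOP3 were the other lower genes, at −0.36 and −0.30, and −0.32 and −0.59. MPH1, a helicase gene, was the higher one, at 0.49 ± 0.05 and 0.47 ± 0.05. The count of lower members was 3 without any of wild-type replicate 1, scc2-4 replicate 2 or scc2-4 replicate 3 of experiment 1.

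The largest rises included reductases of iron and copper uptake. FRE2, a ferric reductase gene, read 7.05, 7.17 and 7.32 in wild type and 8.68, 8.91 and 9.02 in scc2-4 in experiment 1, and 6.94, 6.67 and 6.66 against 8.27, 8.35, 8.28 and 8.47 in experiment 2. The groups were more than a log2 unit apart in each, with changes of 1.69 ± 0.12 (3.23-fold; adjusted p = 1.13e-05) and 1.59 ± 0.07 (3.0-fold; adjusted p = 5.12e-11). FRE3, which reduces iron bound to siderophores, read 7.45, 8.33 and 8.29 against 9.01, 10.19 and 10, and 7.27, 7.24 and 7.65 against 8.52, 8.52, 8.28 and 8.60, with replicate 1 the lowest array of each genotype in experiment 1. FRE7, induced when copper is scarce, read 6.57, 6.96 and 6.82 against 7.74, 8.29 and 8.46, and 6.32, 6.32 and 6.44 against 8.06, 8.05, 8.85 and 8.71. Their changes were 1.71 ± 0.36 and 1.09 ± 0.12 for FRE3, and 1.38 ± 0.21 and 2.06 ± 0.26 for FRE7.

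Of 32 genes of iron uptake and use under the factor Aft1, 11 (34.4%) were higher and 2 lower in both experiments, and 11 and 3 after quantile normalization. Beside FRE2 and FRE3 the higher members held the reductase FRE1 at 0.67 ± 0.08 and 1.02 ± 0.08, the siderophore transporter ARN2 at 0.64 ± 0.13 and 1.39 ± 0.19, ARN1 at 0.53 and 1.10, the multicopper oxidase FET3 at 0.25 and 0.61, and the cell-wall mannoproteins FIT2 and FIT3. CTH1, whose protein acts on mRNA when iron is low, and LSO1 were the lower members, at −0.39 and −0.67, and −0.52 and −1.64. The median change of the 32 genes was 0.18, and 0.35 in experiment 2 when quantile-normalized.

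YCL021W-A, an uncharacterised gene, had the second-largest rise by the smaller of the changes in the 2 experiments. It read 9.54, 9.55 and 9.34 in wild type and 10.87, 11.05 and 10.92 in scc2-4, then 7.69, 7.98 and 8.02 against 10.65, 10.70, 10.54 and 10.60. The scc2-4 arrays of both experiments were close together while the wild type of experiment 2 lay lower, so the change grew from 1.47 ± 0.07 to 2.73 ± 0.11. PHD1, a transcription factor of filamentous growth, read 8.96, 9.25 and 9.15 against 10.09, 10.25 and 10.35, and 8.69, 8.53 and 8.61 against 10.13, 10.16, 10.12 and 10.18, a rise of 1.11 ± 0.11 and 1.54 ± 0.06. YGR109W-A, the Gag gene of the Ty3 retrotransposon, rose by 1.07 ± 0.11 and 0.98 ± 0.07, from 6.03 to 6.12 and 6.10 to 6.23 in wild type to 6.92 to 7.32 and 7.0 to 7.37. Its copies share sequence, so the copy that changed is uncertain. PHO92, an RNA-binding protein gene, IMA5, an isomaltase gene, and MLS1, malate synthase of the glyoxylate cycle, rose by 0.96 ± 0.23, 0.96 ± 0.15 and 0.90 ± 0.16 in experiment 1 and by 2.38 ± 0.13, 1.58 ± 0.14 and 2.04 ± 0.15 in experiment 2.

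**Figure D2:**
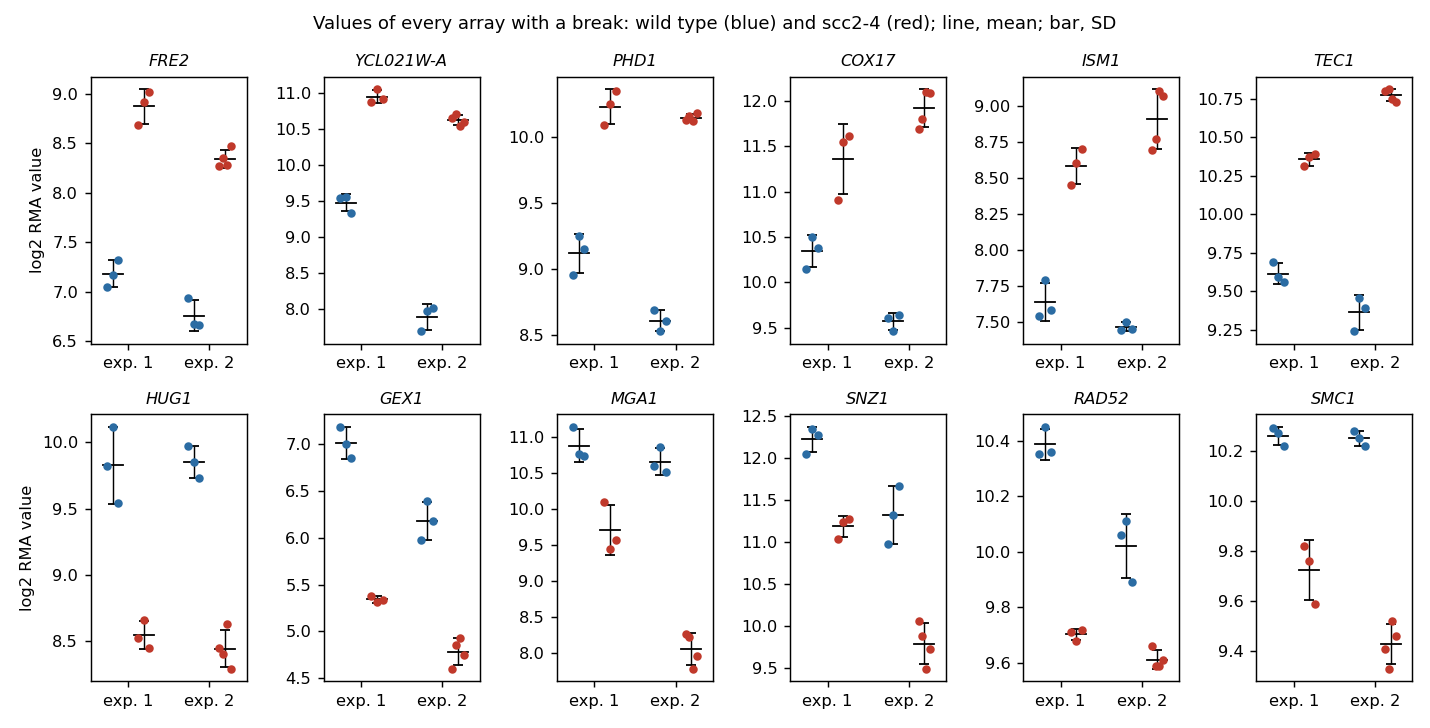
Log2 RMA value of each array with a break for 6 genes higher and 6 genes lower in scc2-4, by experiment. Points are arrays, blue for wild type and red for scc2-4, lines are group means and bars are SDs. The genotypes do not overlap within an experiment in any of the 12 panels, whose genes were chosen from those called in both experiments. Of all genes, 25% do not overlap in either experiment, in the same direction.

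The largest falls belonged to genes of several roles. YLL066W-B, from a subtelomeric repeat family, read 8.47, 8.33 and 8.32 in wild type and 6.23, 5.90 and 5.94 in scc2-4, then 8.28, 7.96 and 7.94 against 6.10, 5.85, 5.98 and 6.10. Its changes were −2.35 ± 0.08 (adjusted p = 6.43e-08) and −2.05 ± 0.10 (adjusted p = 7.76e-11), but its second probe set gave −0.34 and −0.67, and family members can share these probes. GEX1, a glutathione exchanger gene with a near-identical copy, read 7.19, 7.0 and 6.85 against 5.38, 5.31 and 5.34, and 5.98, 6.39 and 6.18 against 4.60, 4.85, 4.93 and 4.75, with −1.67 ± 0.09 and −1.40 ± 0.13. MGA1, related to heat shock factor, read 11.14, 10.76 and 10.73 against 10.10, 9.44 and 9.57, and 10.59, 10.86 and 10.51 against 8.26, 8.22, 7.78 and 7.96. Its fall was −1.18 ± 0.28 in experiment 1 and −2.60 ± 0.18 in experiment 2, without overlap in either.

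SNZ1 and SNO1, neighbours that act together in vitamin B6 synthesis, were lower together. SNZ1 read 12.05, 12.34 and 12.27 in wild type and 11.04, 11.24 and 11.27 in scc2-4, then 10.97, 11.32 and 11.66 against 10.06, 9.88, 9.49 and 9.72. The changes were −1.04 ± 0.10 and −1.53 ± 0.18 for SNZ1, and −1.16 ± 0.22 and −1.62 ± 0.26 for SNO1. HXT11, of the hexose transporter family and like its relative HXT9 in sequence, was lower by −1.19 ± 0.11 and −1.05 ± 0.09, LOH1 by −1.29 ± 0.11 and −1.26 ± 0.06, and FAT3, of fatty acid uptake, by −0.84 ± 0.17 and −1.30 ± 0.15. ECM8 and the spore wall gene OSW2 were at −1.61 ± 0.47 and −0.84 ± 0.28 in experiment 1 and at −1.30 ± 0.09 and −1.67 ± 0.09 in experiment 2. Their experiment 1 calls rested on few arrays. The ECM8 call was lost without wild-type replicate 1 (−1.20), scc2-4 replicate 2 (−1.44) or scc2-4 replicate 3 (−1.46). The OSW2 call was lost without wild-type replicate 1 (−0.68), 2 (−0.97) or 3 (−0.89), or scc2-4 replicate 2 (−0.80) or 3 (−0.67).

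Genes for the mitochondrial translation apparatus were the list with the highest share of higher members. Of 73 mitochondrial ribosome genes, whose products build the ribosome that makes the proteins encoded in mitochondrial DNA, 64 (87.7%) were higher in both experiments and 0 lower, against 14.4% of all genes, and 62 after quantile normalization. Without a break 66 (90.4%) were higher in both experiments, against 12.6% of all genes. The median log2 change was 0.42 in experiment 1 and 1.19 in experiment 2, or 0.92 quantile-normalized. MRPS8, of the small subunit, read 9.42, 9.66 and 9.55 against 10.01, 10.47 and 10.47, and 8.89, 8.97 and 9.04 against 10.72, 10.87, 10.95 and 11.02. In both genotypes of experiment 1 replicate 1 was its lowest array, and the groups did not overlap (0.77 ± 0.15 and 1.92 ± 0.08). MRPL49 and MRP10 were at 0.75 ± 0.15 and 1.33 ± 0.09, and 0.69 ± 0.14 and 1.68 ± 0.05. Leaving out 1 array of experiment 1 changed the count of 64 to 29 (without scc2-4 replicate 2), 31 (without scc2-4 replicate 3) or 37 (without wild-type replicate 1), and to as many as 73 in other fits.

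The factors that serve this ribosome followed the same pattern. Of 22 mitochondrial translation factors and aminoacyl-tRNA synthetases 18 (81.8%) were higher and 0 lower. ISM1, the isoleucyl-tRNA synthetase, read 7.54, 7.79 and 7.58 against 8.45, 8.60 and 8.70, and 7.44, 7.5 and 7.45 against 8.69, 8.77, 9.10 and 9.07, with changes of 0.95 ± 0.12 and 1.44 ± 0.11. MTO1, a tRNA-modifying enzyme, MSY1, the tyrosyl-tRNA synthetase, and NAM2, the leucyl-tRNA synthetase, were higher by 0.85 ± 0.19, 0.75 ± 0.15 and 0.71 ± 0.08 in experiment 1, and by 2.11 ± 0.12, 1.86 ± 0.10 and 0.97 ± 0.08 in experiment 2. The count of 18 was 9 without scc2-4 replicate 2 or 3 and 10 without wild-type replicate 1 of experiment 1.

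Cytochrome oxidase assembly genes came next, with 14 of 27 (51.9%) higher and 0 lower. COX17, which carries copper to the enzyme, read 10.15, 10.5 and 10.38 against 10.91, 11.55 and 11.61, and 9.61, 9.46 and 9.64 against 11.69, 11.80, 12.10 and 12.09, a rise of 1.01 ± 0.19 and 2.35 ± 0.10. COX10, of haem A synthesis, rose by 0.90 ± 0.24 and 1.90 ± 0.10, but its experiment 1 call was lost without scc2-4 replicate 2 (0.79) or 3 (0.77). PET117 was at 0.63 ± 0.07 and 1.00 ± 0.08. The count of 14 was 7 without scc2-4 replicate 2 and 8 without scc2-4 replicate 3 of experiment 1. The structural subunits moved less: 15 of 41 respiratory chain and ATP synthase genes (36.6%) and 8 of 16 TCA cycle genes (50%) were higher, with median changes in experiment 1 of 0.11 and 0.15. QCR10, of complex III, was at 0.34 ± 0.04 and 0.38 ± 0.04, ATP19 and TIM11, of the ATP synthase, at 0.38 ± 0.08 and 0.34 ± 0.07 in experiment 1, and KGD1 and ACO1, of the TCA cycle, at 0.46 ± 0.05 and 0.34 ± 0.06. CIT3, a minor mitochondrial citrate synthase, was the lower TCA gene, at −0.47 ± 0.11 and −0.72 ± 0.14. These counts fell to 7 to 9 and to 3 or 4 without wild-type replicate 1 or 3 or scc2-4 replicate 2 or 3 of experiment 1, and to 9 and 3 when only arrays with a break were fitted.

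**Figure D3:**
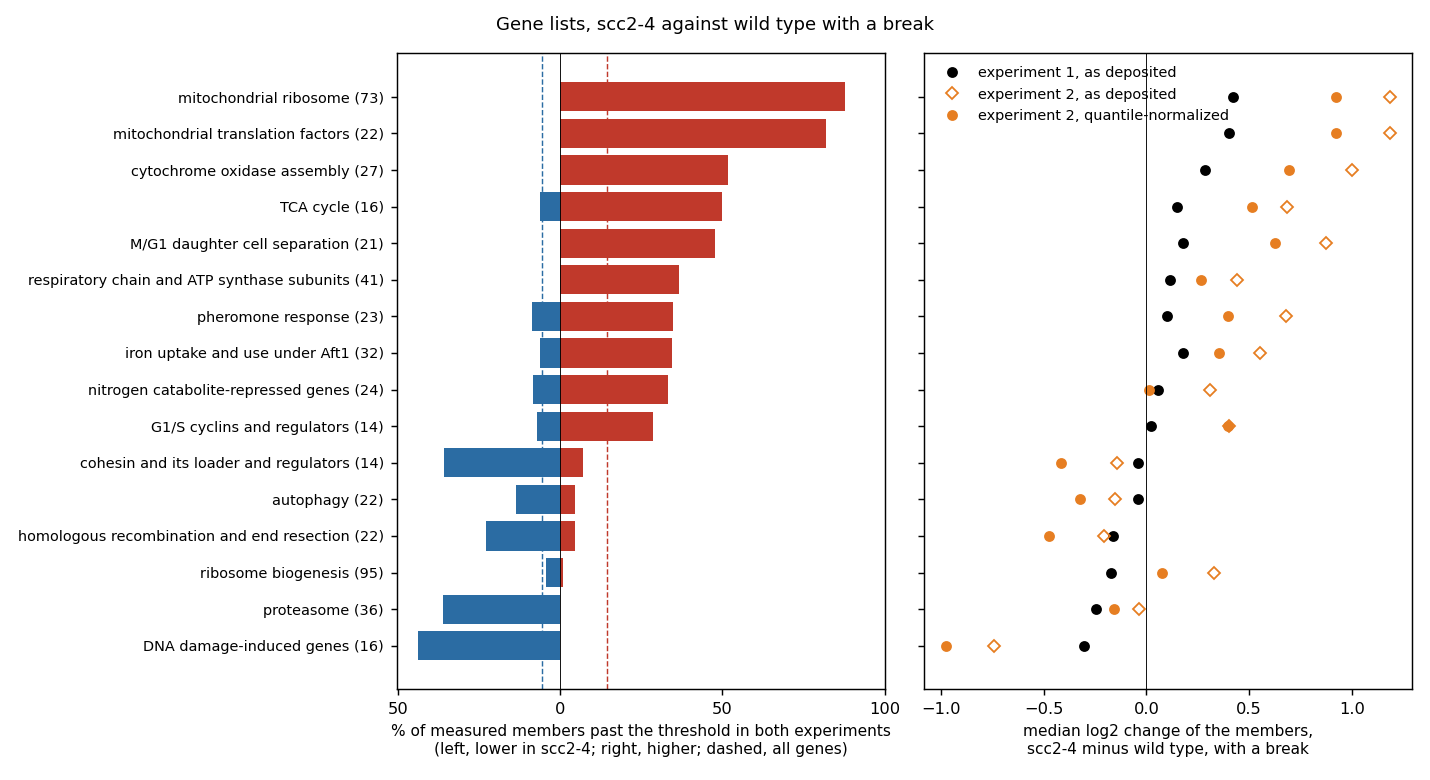
Left, the percent of measured members of 16 gene lists that were lower (blue, to the left) or higher (red, to the right) in scc2-4 in both experiments, with dashed lines at the shares of all genes, 5.52% and 14.4%. Right, the median log2 change of the members of each list by experiment and scale, where the mitochondrial ribosome lists lie farthest to the right and the damage-induced genes farthest to the left.

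Genes beside the centromeres were higher in scc2-4. This was looked for after runs of neighbouring genes called the same way had been seen to straddle centromeres, so it is given as a description with no test. In yeast the number in a systematic gene name counts outward from the centromere on each arm, and 97 measured genes carry the numbers 1 to 3. Of these, 50 (51.5%) were higher in both experiments and 1 lower, against 14.4% and 5.52% of all genes, and 40 and 1 were after quantile normalization. The share fell with distance, to 34.4% for numbers 4 to 6 (93 genes), 15.6% for numbers 7 to 10 (122 genes), and between 12.2% and 15.1% in every bin beyond. The median log2 change of the nearest genes was 0.20 in experiment 1 and 0.46 in experiment 2, or 0.22 quantile-normalized, beside 0.01, 0.23 and 0.02 for all genes. Above 0 were 86 of the 97 in experiment 1 and 77 in experiment 2 after quantile normalization. The counts of higher genes ranged from 40 to 51 when 1 array was left out, and 10 genes reached 0.5 log2 units in both experiments.

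The shift was spread over the genome. All 16 chromosomes had a median above 0 for these genes in experiment 1 and, quantile-normalized, in experiment 2, and 15 held at least 1 called gene, the exception being chromosome IV with 0 of 7. The medians in experiment 1 ran from 0.05 on chromosome XII to 0.54 on chromosome XVI. Values were also set against the other genes of the same array, with the wild-type mean as the zero. The 97 genes then lay 0.18, 0.18 and 0.25 higher in the scc2-4 arrays of experiment 1. In those of experiment 2 they lay 0.25, 0.28, 0.21 and 0.25 higher. The 6 wild-type arrays lie around 0 by this choice, and only their spread, from −0.02 to 0.03, is informative. Leaving out the members of the mitochondrial lists left 46 higher of 91. Chromosome ends did not stand out: among the outermost 5 genes of each end 11 of 89 were higher and 6 lower on both scales, or 12.4% and 6.74%, beside 10.9% and 5.19% of the other genes.

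On chromosome XV all 6 of the nearest genes were called, as were all 5 on chromosome IX. RRP6, a nuclease of the nuclear exosome, was higher by 0.52 ± 0.05 and 0.78 ± 0.04, and PHO80, a cyclin of phosphate control on the other side of the centromere, by 0.38 ± 0.07 and 1.05 ± 0.04. IZH2, PFA4, ALG6 and YSP3 had experiment 1 changes of 0.55, 0.49, 0.18 and 0.43. Around the centromere of chromosome IX 7 neighbours in a row were higher, CFD1, INP51, YIL001W, MPH1, AIM21, DJP1 and IST3, with changes of 0.24 to 0.62 in experiment 1 and 0.47 to 0.80 in experiment 2. CFD1 acts in iron-sulfur cluster assembly, and INP51 is a phosphoinositide phosphatase gene. On chromosome XVI ULA1, SNF8 and HAT1 were higher by 0.68, 0.40 and 0.50 on the left arm and PDH1 by 0.62 on the right, next to CIT3, the 1 gene of the 97 that was lower. These genes were named after their values were seen.

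Part of these genes were higher without a break too. Of the 97, 36 (37.1%) were higher in both experiments without a break, against 12.6% of all genes, and 0 were lower. All 36 were among the 50 that were higher with a break. Over all 97 genes the median changes without a break were 0.10 and 0.18 (quantile-normalized in experiment 2). The difference between the genotype effect with and without a break had a median of 0.06 and 0.05 over the 97 genes, and 0 of them passed its test in both experiments, where 0.147% of all genes did.

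**Figure D4:**
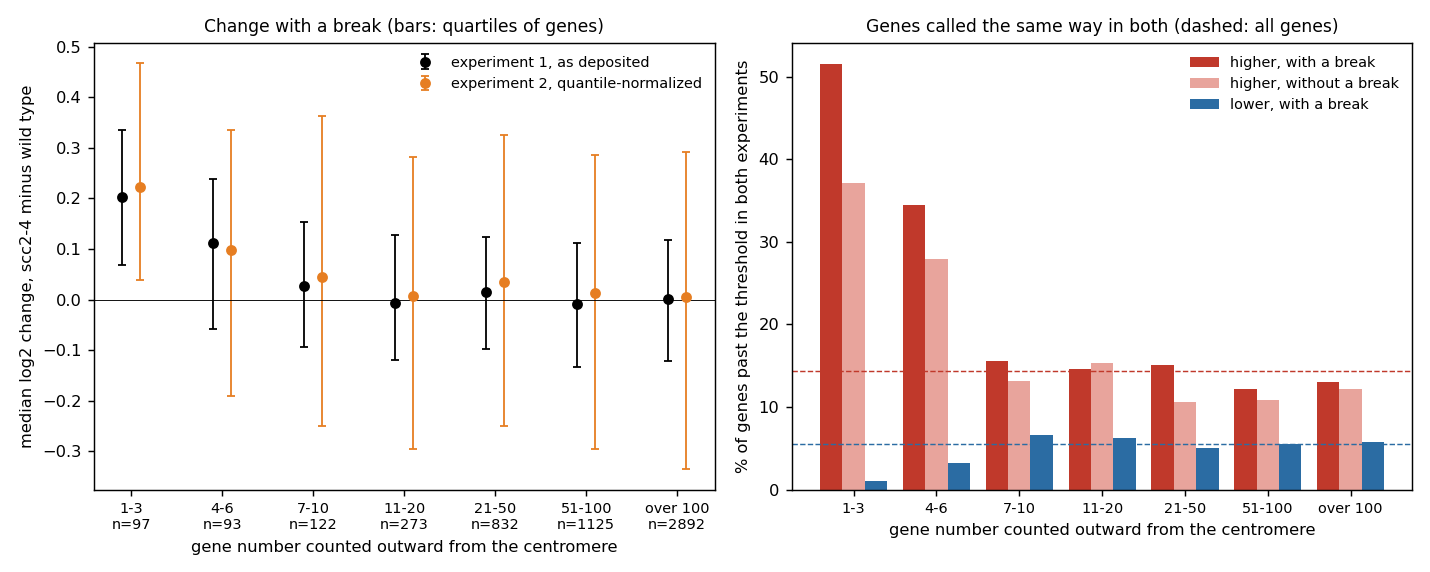
Left, the median log2 change (scc2-4 minus wild type, with a break) of genes binned by their number counted outward from the centromere, with bars for the quartiles of genes and n the genes in a bin. Right, the percent of genes per bin higher or lower in both experiments with a break, and higher without, beside dashed lines for all genes, where numbers 1 to 3 reach 51.5% and bins beyond number 6 lie near the line.

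Other runs of called neighbours lay away from centromeres. On the right arm of chromosome VI HIS2, ULI1, ECO1 and CDC14 were all higher, by 0.40, 0.78, 0.20 and 0.51 in experiment 1 and by 1.14, 0.75, 0.52 and 1.03 in experiment 2. CDC14, a phosphatase of mitotic exit, and ECO1 lie side by side there. On chromosome XII YCT1, YLL054C, YLL053C, AQY2 and FRE6 were higher, with AQY2, an aquaporin gene, at 0.62 ± 0.10 and 3.23 ± 0.06, and FRE6, a vacuolar reductase gene, at 0.40 and 0.59. On chromosome VII MND1, GTS1, ATG1 and TOS3 formed the lower run, at −0.31, −0.19, −0.62 and −0.45 in experiment 1. In all there were 23 runs of at least 3 measured neighbours called the same way on both scales, 22 higher and 1 lower, and no test was made of their number.

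Part of the proteasome genes, which encode the protease for ubiquitin-tagged proteins, were lower by small amounts. Of 36 genes 13 (36.1%) were lower in both experiments and 0 higher, against 5.52% of all genes, and 20 after quantile normalization, although 8 passed with opposite signs in the experiments. In experiment 1 alone 30 were lower and 0 higher, beside 14.5% and 16.8% of all genes. In experiment 2 alone 14 were lower and 10 higher, beside 24% and 58.8% of all genes. After quantile normalization these became 23 and 3, beside 37.8% and 39.9%. RPT4, a base ATPase, read 12.53, 12.62 and 12.60 against 12.20, 12.21 and 12.22, and 12.73, 12.68 and 12.57 against 12.39, 12.39, 12.36 and 12.38. Its groups were tight and apart, by −0.37 ± 0.04 and −0.28 ± 0.04. RPT6, another base ATPase, was at −0.33 ± 0.04 and −0.27 ± 0.04, the lid subunit RPN5 at −0.25 ± 0.05 and −0.32 ± 0.04, and the adaptor ECM29 at −0.49 ± 0.10 and −0.71 ± 0.06. Medians over the list were −0.24 in experiment 1 and −0.03 in experiment 2 (−0.16 quantile-normalized), and 0 of the 36 fell by 0.5 or more in both.

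In autophagy 3 of 22 genes (13.6%) were lower and 1 (4.55%) higher, beside 5.52% and 14.4% of all genes. ATG7, the E1-like activating enzyme, read 9.63, 9.17 and 9.23 against 8.90, 8.45 and 8.47, and 8.94, 8.98 and 8.92 against 8.13, 7.95, 7.91 and 7.93, with −0.73 ± 0.17 and −0.96 ± 0.06. ATG1, the initiating kinase, and ATG5 were the others, at −0.62 ± 0.16 and −1.53 ± 0.07, and −0.35 ± 0.11 and −0.61 ± 0.06, and ATG27, a membrane protein gene, was higher. Without scc2-4 replicate 3 of experiment 1 the count of 3 was 1, with ATG1 at −0.54 and ATG5 at −0.30. The ATG5 call was lost as well without wild-type replicate 1 (−0.29) or 3 (−0.38), without scc2-4 replicate 2 (−0.34), or without replicate 1 of both genotypes (−0.35). Ribosome biogenesis went both ways: of 95 genes 4 (4.21%) were lower, 1 (1.05%) higher and 10 opposite between the experiments. The lower and higher shares were below those of all genes, 5.52% and 14.4%. The median change of the 95 genes went from −0.17 in experiment 1 to 0.33 in experiment 2 (0.08 quantile-normalized, when 14 were lower). The count of 4 was 2 without 6 of the 13 arrays, in turn wild-type replicates 2 and 3 and scc2-4 replicates 1 and 3 of experiment 1 and replicate 1 of each genotype of experiment 2.

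Some genes of late mitosis and early G1 were higher in cells labelled as arrested in G2/M. Of 21 M/G1 genes of daughter cell separation 10 (47.6%) were higher and 0 lower, 9 were higher after quantile normalization, and 3 passed with opposite signs in the experiments. TEC1, a transcription factor, read 9.69, 9.59 and 9.56 against 10.31, 10.37 and 10.39, and 9.24, 9.46 and 9.39 against 10.80, 10.81, 10.75 and 10.73, a rise of 0.74 ± 0.05 and 1.41 ± 0.06. DSE4, the glucanase that splits the daughter wall, was at 0.52 ± 0.11 and 2.10 ± 0.08, and the cyclin PCL9 at 0.47 ± 0.08 and 1.00 ± 0.06. Of 14 G1/S genes 4 (28.6%) were higher and 1 (7.14%) lower, beside 14.4% and 5.52% of all genes. Higher were the cyclins CLN1 at 0.43 ± 0.07 and 1.21 ± 0.06, PCL2 at 0.42 ± 0.08 and 0.98 ± 0.06 and CLN3 at 0.23 and 0.65. The wall protein SVS1 was also higher, at 0.39 ± 0.07 and 1.32 ± 0.08. Lower was the S-phase cyclin CLB5 at −0.31 ± 0.06 and −0.30 ± 0.05. The 19 genes of the CLB2 cluster had median changes of 0.07 in experiment 1 and 0.24 in experiment 2 (−0.04 after quantile normalization). Whether the share of cells held in G2/M differed between the genotypes was not tested.

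Pheromone response genes, which prepare haploid cells for mating, had 8 of 23 (34.8%) higher and 2 lower. SST2, which damps the response, read 6.11, 5.96 and 5.93 against 6.78, 6.91 and 6.82, and 5.78, 5.86 and 5.8 against 7.13, 7.12, 7.16 and 7.18. All scc2-4 arrays lay above all wild-type ones, by 0.84 ± 0.07 and 1.34 ± 0.06. FUS1, of cell fusion, was at 0.65 ± 0.09 and 0.81 ± 0.07, FAR1, which arrests the cycle in G1, at 0.64 ± 0.10 and 1.95 ± 0.13, and STE18, the G protein gamma subunit, at 0.54 ± 0.09 and 1.24 ± 0.12. KAR4, a transcription factor of karyogamy, and STE11, a MAP kinase kinase kinase gene, were lower, at −0.89 and −0.35, and −0.24 and −0.66. Among the low mating-type markers STE6, of a cells, was higher by 0.37 ± 0.07 and 0.46 ± 0.06 and SAG1, of alpha cells, by 0.61 ± 0.08 and 0.50 ± 0.06, while STE3, of alpha cells, was lower at −0.35 and −0.48, or 0.01 quantile-normalized in experiment 2. ASG7, of a cells, was also lower, at −0.24 and −0.84, and so was MF(ALPHA)1, of alpha cells, at −0.29 and −0.33, or 0.54 quantile-normalized in experiment 2. The part of these markers in the pheromone genes' change was not tested.

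Nitrogen catabolite-repressed genes, used when preferred nitrogen sources run short, had 8 of 24 (33.3%) higher and 2 lower. The allantoin genes led: DAL4, a permease, read 7.47, 7.33 and 7.46 against 8.22, 8.04 and 7.99, and 6.32, 6.56 and 6.43 against 7.61, 7.48, 7.32 and 7.39, with 0.66 ± 0.11 and 1.01 ± 0.09. DAL3, DAL7 and DAL5 were at 0.40 ± 0.07, 0.39 ± 0.05 and 0.35 ± 0.07 in experiment 1 and 1.28 ± 0.08, 0.59 ± 0.05 and 0.64 ± 0.05 in experiment 2. The proline genes PUT1 and PUT4 were lower, at −0.31 and −0.86, and −0.18 and −0.89.

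Some groups moved in experiment 2 and were not called in experiment 1. Of 33 general stress genes under Msn2 and Msn4 29 (87.9%) were lower in experiment 2, where 24% of all genes were, and limma called 0 in experiment 1 (3 at an unadjusted p under 0.05, 10 with array weights). The median changes were −0.73 and −0.03. TKL2, a transketolase gene, read 12.94, 12.66 and 12.60 against 12.71, 12.36 and 12.25 in experiment 1, with overlap, and 12.96, 12.95 and 12.98 against 10.64, 10.17, 9.96 and 9.93 in experiment 2, a gap of −2.79 ± 0.19. With the replicate number as a block the TKL2 change of −0.30 in experiment 1 passed as well (adjusted p = 0.0201). GRE1 was at −0.11 ± 0.16 and −2.83 ± 0.22. Of 128 cytoplasmic ribosomal protein genes 125 were higher in experiment 2 (58.8% of all genes were) and limma called 0 in experiment 1 (2 at an unadjusted p under 0.05, 18 with array weights). After quantile normalization 90 were higher in experiment 2 and 4 lower, beside 39.9% and 37.8% of all genes, and after centring 57 and 12. Since value set and genotype cannot be told apart in experiment 2, the experiment 2 values of these groups carry both.

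The genotype difference was mostly shared by cells without a break. Break and strain cannot be told apart in the comparisons that follow, since galactose was given to every group. Of the 1082 genes called with a break 663 (61.3%) were called the same way without a break, which is 73.0% of the 908 called there (16.7% of genes; 684 higher, 12.6%, and 224 lower, 4.12%). Without a break FRE2 was at 1.27 and 1.70, YCL021W-A at 1.53 and 2.82, COX17 at 1.10 and 2.25, GEX1 at −1.47 and −1.33 and MGA1 at −1.28 and −2.75. Of the 24 genes with the largest changes with a break, 17 had changes within 1.5 times of these without a break in both experiments and 7 did not. Besides HUG1 and YLL066W-B the 7 were PLM2 at −0.18 and 0.26 without a break, SNO1 at −0.48 and −0.97, SNZ1 at −0.41 and −1.10, PHO92 at 0.51 and 2.35, and FAT3 at −0.75 and −0.61. The direct test of with against without passed for 11 genes in experiment 1 (0.202%; 469 at an unadjusted p under 0.05), 139 in experiment 2 (2.56%; 973) and 8 in both with the same sign (0.147%). With the replicate number as a block these were 25 in experiment 1 and 12 in both. Leaving out any 1 array with a break of experiment 1 gave 4 to 7 genes there, and 4 or 5 in both except without wild-type replicate 3. In experiment 2 the count was 81 without wild-type replicate 3, 83 without scc2-4 replicate 3 and 92 without scc2-4 replicate 4. Without replicate 1 of both genotypes of experiment 1 the counts were 5 and 4.

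HUG1 was the damage-induced gene among the 8. Without a break it read 7.23 to 7.5 in wild type and 7.12 to 7.33 in scc2-4 in experiment 1, and 6.77 to 7.27 and 6.95 to 7.09 in experiment 2, so the genotypes overlapped, in contrast to the values with a break above. The difference of differences was −1.14 (adjusted p = 0.0374) and −1.44 (adjusted p = 0.000108). In both genotypes the arrays with a break were the higher ones. Only arrays with a break were left out in turn. In experiment 1 the HUG1 call for the difference of differences held without wild-type replicate 3 and was lost without any other of these arrays. Without wild-type replicate 1 or 2 the HUG1 difference there was −1.14 (adjusted p = 0.0905) or −0.99 (adjusted p = 0.0572), and without scc2-4 replicate 1, 2 or 3 it was −1.13, −1.20 or −1.09 (adjusted p = 0.0977, 0.0738 and 0.131). Of the 13 fits that left out 1 array, the test passed in both experiments in 13 for YLL066W-B, YIR042C, YLR156W and YLR157W-E, 9 for ASP3-1, 8 for HUG1, 6 for ARO1 and 2 for ALE1. YLL066W-B read 7.52 to 7.64 and 7.63 to 7.74 without a break in experiment 1, and 7.09 to 7.47 and 7.5 to 7.71 in experiment 2. With a break the wild type was above and scc2-4 below these levels, a difference of −2.44 and −2.29. The other probe set of YLL066W-B was at −0.34 and −0.67 with a break and at −0.19 and −0.23 without. A difference of that size was thus seen in the kept probe set only. YIR042C, an uncharacterised gene, read 7.88, 7.54 and 7.75 against 6.56, 6.15 and 6.45 with a break in experiment 1, and 7.77 to 8.11 against 8.10 to 8.18 without, a difference of −1.51 (−1.35 in experiment 2).

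Neighbouring repeats on chromosome XII went the other way. YLR156W read 7.63, 7.48 and 7.25 in wild type and 8.40, 8.10 and 8.17 in scc2-4 with a break in experiment 1, against 7.5 to 7.83 and 6.69 to 6.87 without a break. In experiment 2 it read 6.66, 6.44 and 6.33 against 8.14, 8.38, 8.25 and 8.18 with a break and 6.24 to 6.51 against 6.72 to 7.15 without. The scc2-4 arrays with a break were thus the highest of all groups, and the difference was 1.71 and 1.2. YLR157W-E differed by 1.51 and 0.99, but its 2 probe sets disagreed with a break, at 0.63 and 1.24 for the one kept and 0.09 and −1.41 for the other. Without a break that other probe set stood at 0.02 and −1.34, close to its values with one. It was dim, with group means of 3.48 to 4.90 with a break, so the difference rests on the probe set kept. ASP3-1, an asparaginase gene of the same repeats, differed by 0.35 and 0.46. These genes have near-identical copies in a row, so the copy measured is uncertain. ALE1, a lysophospholipid acyltransferase gene, differed by 0.48 and 0.31, and ARO1, of aromatic amino acid synthesis, by −0.37 and −0.38. ARO1 was higher in scc2-4 without a break, by 0.41 and 0.74, and at 0.03 (adjusted p = 0.578) and 0.36 with one.

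**Figure D5:**
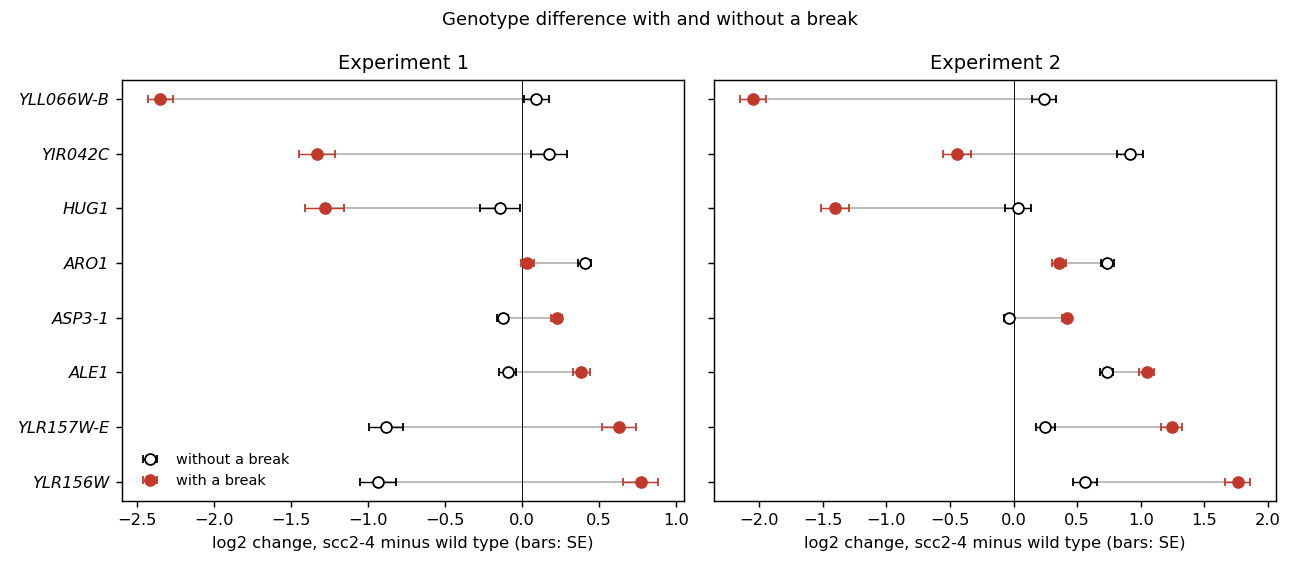
Log2 change (scc2-4 minus wild type) without a break (open circles) and with a break (red) for the 8 genes whose difference passed in both experiments, with bars for the SE. Grey lines join the values of a gene, and HUG1, YLL066W-B and YIR042C are lower with a break while YLR156W, YLR157W-E, ASP3-1 and ALE1 are higher.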

How the data were processed

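Expression was measured on Affymetrix Yeast Genome 2.0 arrays. The deposited values are log2 intensities that the authors made by RMA under R version 2.9.2 (per the submitters' processing notes), without a statement of which arrays entered each run. The sets that share a value distribution were found from the values. Samples were grouped by their labels, which call the replicates biological. Of 5684 probe sets 5468 had 1 gene symbol, 0 several and 216 none. Symbols were matched through the R64 gene table (5468 of 5468), no coordinates are printed because no build is named, and 34 genes had more than 1 probe set, of which the brightest on average stands for the gene, giving 5434 genes.

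Each experiment was fitted apart over its 4 groups by limma 3.58.1 (lmFit, eBayes; R 4.3.3), and p-values were adjusted by Benjamini and Hochberg's method over all genes, with a threshold of 0.05. Standard errors are those of the fit. On simulated data of this design 89% and 99% of genes changed by 0.5 log2 units were recovered in experiments 1 and 2, with 13 and 11 false calls. In each, 100 genes were changed by 0.5 and 100 by 1 log2 unit, far fewer than were called in the data. No shift between value sets was simulated, so the false calls do not carry over to the calls above. Noise was drawn independently for each gene and array, so deviations shared over genes, as in replicate 1 of experiment 1, were not simulated. Nor were changes under 0.5 log2 units, which most calls of experiment 1 were. Deviations of same-numbered arrays with a break correlated over the threshold of 0.1 in every pair of experiment 1 (r over genes of 0.77, 0.45 and 0.35), and a fit with that block is given where it moved a count. The pairing is not unique, since wild-type replicate 2 with scc2-4 replicate 3 reached 0.74 and wild-type replicate 3 with scc2-4 replicate 2 reached 0.46. Named genes were, among those called in both experiments as deposited and quantile-normalized, the 12 higher and 12 lower with the largest smaller change, up to 4 members per list (2, as values, where none passed), the 6 with the largest difference with against without a break, and SCC2, SCC4, MCD1, HO, GAL1, HUG1 and RNR3, and other genes were named after their values were seen. Members, the 46 gene lists (16 of them described at length) and rules were chosen with earlier results of these data known. A planned count of promoter motifs was not run, since no sequences were used here.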

Additional observations from a re-analysis of the deposited data

Results flagged for a closer look

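For 8 of the 145 named genes 1 of the 4 scc2-4 arrays of experiment 2 was set apart from the other 3, relative to the range of the 4. This is near the 1 in 20 that chance flags, and several of the gaps were small in log2 units. Replicate 3 was the lowest for YIR042C at 6.27 (others 6.50 to 6.53), ARN2 at 10.08 (others 10.60 to 10.66) and NIC96 at 11.04 (others 11.10 to 11.11). Replicate 1 was the lowest for RPL22B at 12.07 and TYS1 at 11.97, and the highest for ATG27 at 11.79. Replicate 2 was the lowest for MUP1 at 10.68 and the highest for STE6 at 8.01. ARN2 was the gene with the widest gap.

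The genotype difference was another with a break than without in both experiments for 8 genes, by the direct test. In this test break and strain cannot be told apart. Given as the value with a break minus that without, in experiment 1 and then experiment 2, YLL066W-B had −2.44 and −2.29, YIR042C −1.51 and −1.35, HUG1 −1.14 and −1.44, and ARO1 −0.37 and −0.38. The remaining genes had positive differences, YLR156W 1.71 and 1.2, YLR157W-E 1.51 and 0.99, ALE1 0.48 and 0.31, and ASP3-1 0.35 and 0.46. For YLL066W-B and YLR157W-E these are values of the probe set kept, and the other probe set of each changed far less between the conditions.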

How the results depend on the processing

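All numbers here are counts of genes unless a log2 value is named. Over 3670 comparisons of a named gene with an alternative, 3527 kept direction and side of the threshold, 16 came to pass, 122 no longer passed and 5 changed sign. The changed signs, all in experiment 2, were YLR157W-E averaged over its probe sets (log2 −0.0855), GAL1 centred (−0.17) or quantile-normalized (−0.0356), and RNR3 centred (−0.175) or quantile-normalized (−0.20). Centring gave 2003 higher and 2284 lower in experiment 2, 528 lower in both, 225 opposite, and among lower list members 8 for recombination, 27 for proteasome and 15 for ribosome biogenesis, where quantile normalization gave 2053, 514, 210, 8, 20 and 14. With only the arrays with a break 215 were opposite, and 9 respiratory and 3 TCA genes were higher. With the replicate block, which pairs same-numbered arrays, 25 genes passed the break test in experiment 1. The block brought NBL1, TKL2 and ERO1 past the threshold in experiment 1, changed no other call of a named gene and no list count by over 1.5 times, and in experiment 2 the numbers did not pair arrays (r of 0.16, −0.14 and −0.16). Array weights gave 1575 higher and 1351 lower in experiment 1, 1234 and 472 in both, 789 opposite, break tests of 234, 235 and 34 (experiment 1, experiment 2, both), 8 recombination, 24 oxidase assembly, 24 respiratory and 17 iron genes. Leaving out the dimmest genes gave 855 lower in experiment 2, 194 lower in both, break tests of 6 and 3 (experiment 1, both), 4 damage, 3 recombination, 1 autophagy, 2 G1/S and 3 nitrogen genes, with fewer genes tested. Without replicate 1 of both genotypes of experiment 1, an alternative added after seeing the data, the break tests gave 5 and 4. Requiring 0.5 log2 units gave 142 and 97 in experiment 1, 1483 and 572 in experiment 2, 128 and 53 in both, 5 opposite, break tests of 5, 24 and 5, and 1896 for the difference between experiments. It left 3 damage, 2 cohesin, 20 mitochondrial ribosome, 7 translation factor, 6 oxidase assembly, 5 iron, 3 M/G1, 4 pheromone, 1 nitrogen and 10 centromere-near genes, and 0 for recombination, proteasome, ribosome biogenesis, respiratory chain, TCA and G1/S. A fit of all 27 arrays with experiment as a term gave 2340 higher and 1016 lower, and with the sets as a block 139 for the break test. Leaving out 1 array in turn gave 611 to 881 higher and 567 to 743 lower in experiment 1, 3104 to 3169 and 1215 to 1319 in experiment 2, 535 to 797 and 207 to 335 in both, 205 to 404 opposite, break tests of 4 to 7, 81 to 173 and 4 to 9, and 3653 to 3958 for the difference between experiments. List counts then ran from 6 to 8 (damage), 3 to 6 (recombination), 4 to 5 (cohesin), 13 to 14 (proteasome), 2 to 4 (ribosome biogenesis), 1 to 3 (autophagy), 29 to 73 (mitochondrial ribosome), 9 to 19 (translation factors), 7 to 20 (oxidase assembly), 7 to 19 (respiratory), 3 to 9 (TCA), 9 to 11 (iron), 7 to 10 (M/G1), 6 to 8 (pheromone), 3 to 4 (G1/S), 8 to 8 (nitrogen) and 40 to 51 (centromere-near). Except where the text states it, the cause of these moves was not tested. The planned promoter motif count was not run. With 3 or 4 arrays a group the number of arrays limits the precision of small changes.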
